A study of Homo sapiens with 2 samples.

Results

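The centrosome and centriole genes of H1299, an established human non-small cell lung cancer line, were compared between 1 library of cells given 5 mM metformin and 1 library of untreated cells (control). The genes were the protein-coding ones whose symbol starts with CEP and a digit, 39 in all, together with PLK4, STIL, SASS6, CENPJ, PCNT, PCM1, CDK5RAP2, CETN2, CETN3, NIN, OFD1 and TUBG1. These 51 of 27685 gene IDs were picked by a rule on gene names, which uses no measured value, although earlier results of these data were known when it was set. Cells of both groups were cultured with serum and taken at passages 10-15. The time in metformin was not given in the sources used here. Metformin, a common drug for type 2 diabetes, lowers respiration at complex I. Values are TPM, which divide reads by transcript length and scale each library to the same total. Because each group is 1 library, nothing here has a replicate check and there are no p-values. Each 95% interval covers the counting of reads only.

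The centrosome is the main microtubule organising centre of animal cells, a pair of centrioles in a matrix called the pericentriolar material. New centrioles are built next to the old ones in each cell cycle, starting from a cartwheel that the kinase PLK4 sets in place. The older centriole of the pair carries appendages, which anchor microtubules and let it act as the basal body of a primary cilium. Cancer cells often have abnormal centrosome numbers.

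About 31.7 M read pairs (6.40 Gb aligned) were estimated for metformin and 28.7 M (5.80 Gb) for control. A gene was called measured at 1 TPM or more in at least 1 library, which 14078 genes were. Of the markers of the line, VIM, which encodes vimentin, was listed at 4962 TPM in metformin and 4378 in control. The keratin genes KRT8 and KRT18 were listed at 521 and 954 TPM in metformin, against 269 and 553 TPM in control. Of 6 markers of other cell types (PTPRC, CD3E, CD68, PECAM1, COL1A1, DCN), 5 were at 0.342 TPM or less in both libraries and CD68, a lysosomal protein, was listed at 115 TPM in metformin and 148 in control. The libraries come from bulk RNA, so fewer cells in a given phase of the cell cycle and less RNA per cell cannot be told apart.

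Of the 51 genes, 50 were measured, all of them in both libraries. The exception, CEP295NL, had an estimated 2.88 read pairs in metformin and 6.07 in control. Most of the 50 genes were moderately lower in metformin. By log2(TPM + 1) in metformin minus that in control, called the difference below, 37 lay below 0 and 13 above. The median was -0.24, against -0.08 over all measured genes, of which 59.7% lay below 0. The TPM summed over the 50 genes was 1443 in metformin and 1677 in control, a ratio of 0.861. The ratios of single genes ran between 0.532 for PLK4 and 1.43 for CEP89. The 95% counting interval lay wholly below 1 for 32 genes, wholly above 1 for 9 and included 1 for 8. The same count was not made over all measured genes, whose median difference also lay below 0. The 32 therefore have no background share beside them. The read pairs behind the intervals were estimated. For some genes mean read depth over all exons was low for the TPM, so their intervals may be too narrow. Among these are CEP63, CEP78, CEP112 and CEP164, with intervals above 1, and CEP41 and CEP57L1, with intervals below 1. The counts of 32 and 9 may therefore be too high. CEP15 had no matched transcript length and so no interval. Exons of 12 of the 50 genes overlap those of another gene whose GENCODE name matches a deposited gene symbol. This overlap is on the same strand for CEP57L1 and on the other strand for the rest. The rest include CEP57, CEP63, CEP68, CEP72, CEP76, CEP83, CEP295, OFD1 and TUBG1. Without use of strand in counting, reads there could belong to either gene. Overlaps with unmatched names were not counted, such as C12orf29 with CEP290, by 399 bases on the other strand. Unnamed GENCODE entries overlap CEP43, CEP63 and NIN on the same strand, by 3623, 2022 and 1185 bases.

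**Figure D1:**
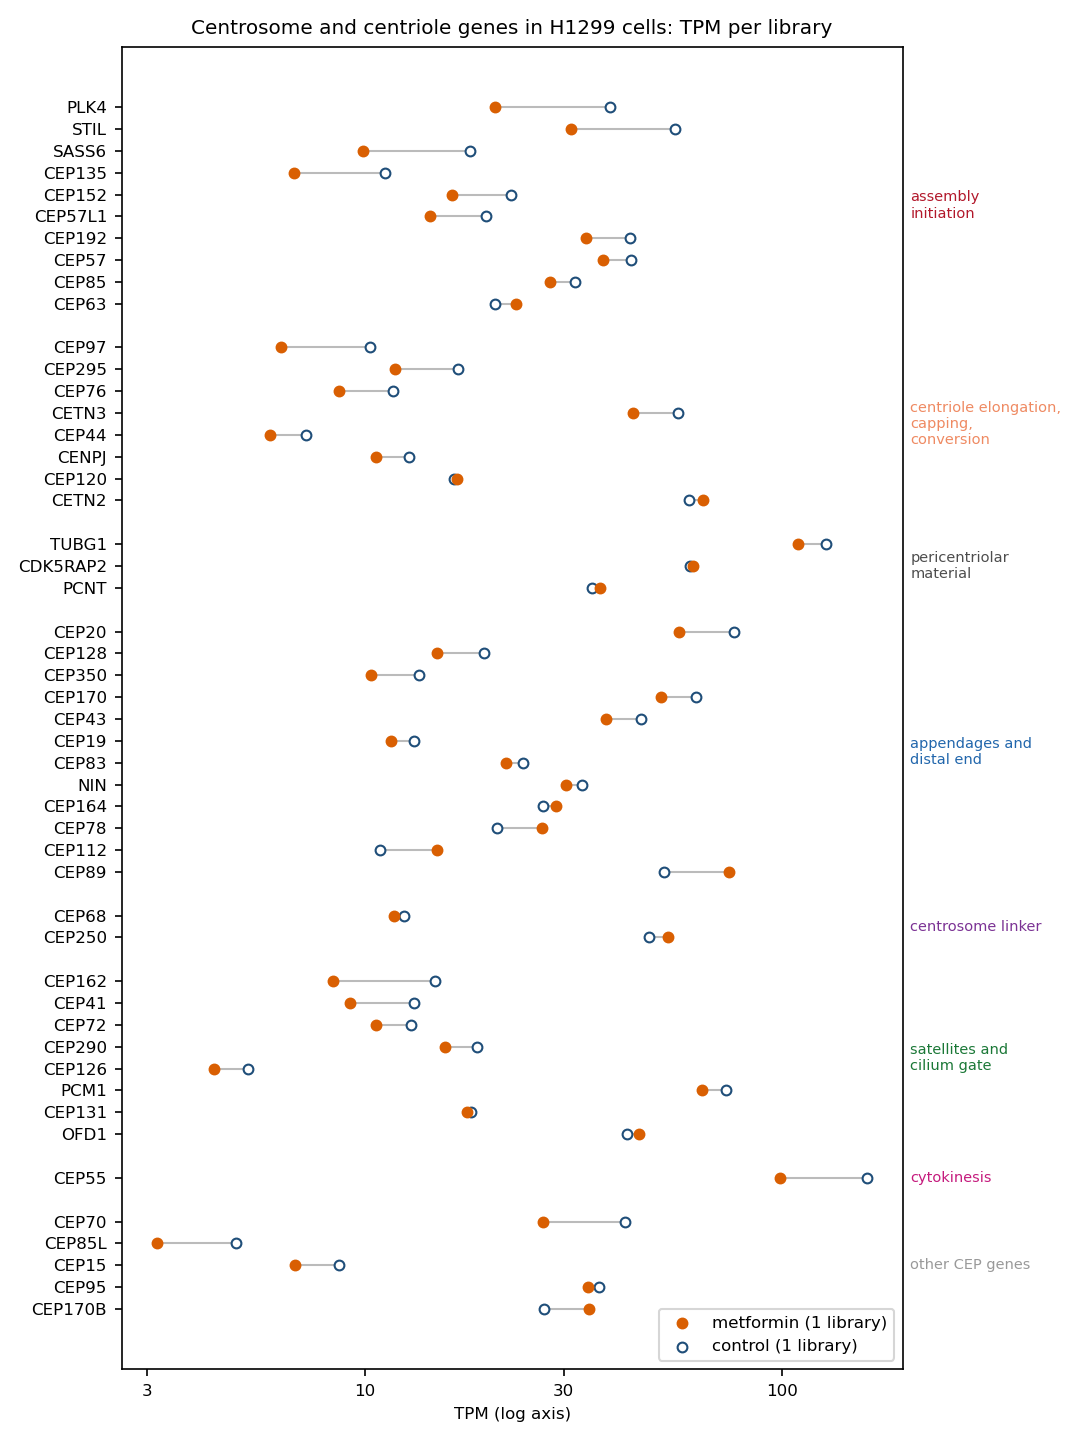
TPM of 49 measured centrosome and centriole genes on a log axis, with filled points for the metformin library, open points for the control library and genes grouped by role. The filled point lies left of the open one for 37 genes, with wide gaps for PLK4, STIL, SASS6 and CEP55, and right of it for CEP89 and CEP112.

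No gene of the set reached a 2-fold difference in either direction on the log2(TPM + 1) scale, where 1.24% of all measured genes were lower and 1.51% higher. At 1.5-fold or more 8 genes, 16% of the set, were lower and none was higher, beside 7.03% lower and 5.40% higher over all measured genes. The 8 were PLK4, STIL, SASS6, CEP162, CEP55, CEP135, CEP70 and CEP97. None of the 8 is among the 12 genes counted above as overlapping a gene matched by name. SASS6 overlaps an unnamed GENCODE entry on the same strand, by 292 bases. The count changed with scaling and with the removal of a trend. It was 5 after centring on the median of well expressed genes. Once the trend over transcript GC content and length was taken out, it was 2 of 49 genes, PLK4 and STIL. There 5.35% of all genes were lower, so the share of the set was not above that of all genes. On the centred scale the share of higher genes among all those past 1.5-fold was 60.6%, in place of 43.4%.

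**Figure D2:**
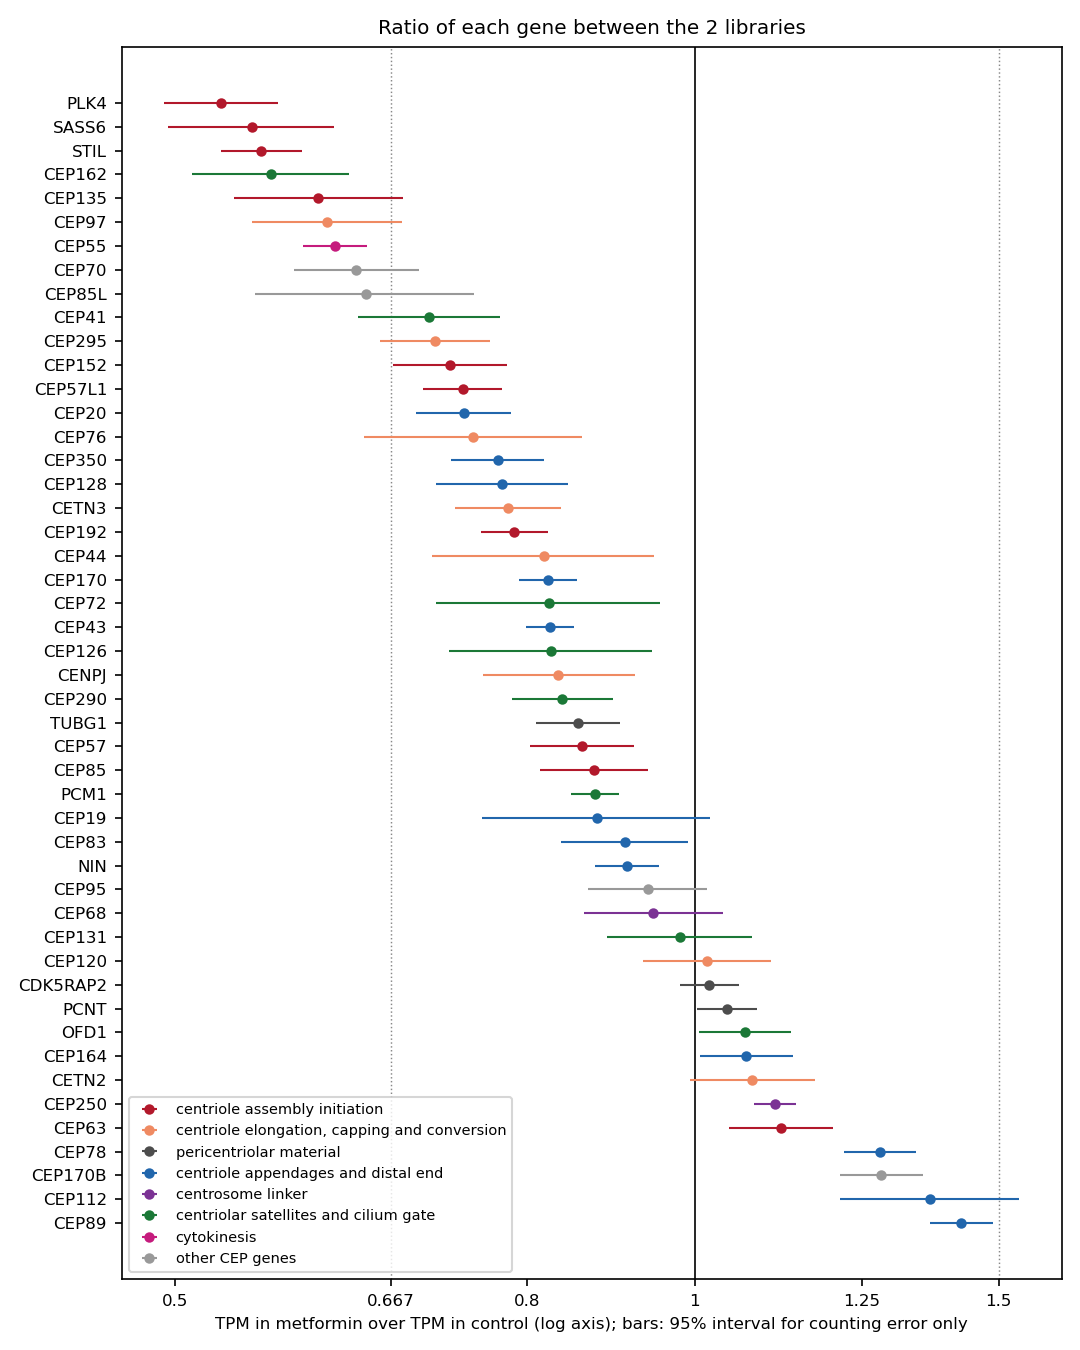
Ratio of TPM in metformin over TPM in control for 48 genes with an interval, on a log axis, coloured by role. Bars are 95% intervals for counting error only and dotted lines mark a 1.5-fold ratio in either direction. PLK4, SASS6 and STIL stand at the low end, between 0.532 and 0.561, and CEP89 at the high end at 1.43.

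The genes that start a new centriole had the lowest median of the role groups with at least 3 genes, -0.43, and 9 of the 10 lay below 0. PLK4, the kinase that triggers centriole duplication, was listed at 20.6 TPM in metformin and 38.6 in control, a ratio of 0.532 (95% counting interval 0.493 to 0.574). STIL, which binds and activates PLK4, was listed at 31.1 TPM in metformin and 55.5 in control, a ratio of 0.561 (0.531 to 0.593). SASS6, which builds the hub of the cartwheel, was listed at 9.91 TPM in metformin and 17.9 in control, a ratio of 0.555 (0.496 to 0.619). The levels of these 3 partners differed by nearly the same factor, so their proportions were close in the libraries: STIL stood at 1.51 times the PLK4 level in metformin and 1.44 times in control, and SASS6 at 0.482 times in metformin and 0.463 times in control. Their difference of log2(TPM + 1) lay in the lowest 2.93% of all measured genes or below. PLK4 (NCBI gene 10733) lies on the plus strand of chromosome 4 at 128802016 to 128820377 of hg19, STIL (6491) on the minus strand of chromosome 1 at 47715811 to 47779819, and SASS6 (163786) on the minus strand of chromosome 1 at 100549101 to 100598651.

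CEP135, which joins the cartwheel to the centriole wall, followed at 6.77 TPM in metformin and 11.2 in control, a ratio of 0.606 (0.541 to 0.678). The receptors that bring PLK4 to the centriole were less far apart between libraries than PLK4 itself: CEP152 had a ratio of 0.722 (0.669 to 0.779) and CEP192 one of 0.786 (0.752 to 0.822). CEP152 therefore stood at 0.788 times the PLK4 level in metformin and 0.581 times in control. CEP57L1, CEP57 and CEP85, further proteins around the base of the new centriole, had ratios of 0.734, 0.860 and 0.874. CEP63, the partner of CEP152 in the ring around the old centriole, was the member above 0, at 23.1 TPM in metformin and 20.6 in control. Its TPM ratio was 1.12, with a counting interval above 1, while mean read depth over all its exons, on the same scale, had a ratio of 0.908, so its direction differed between the measures. Its exons also overlap those of ANAPC13 on the other strand.

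Shown are the promoters of the 3 lowest genes and of CEP55, which has the highest control level in the set and also stood low. CEP162 had a lower difference than CEP55, -0.75 against -0.69, but its promoter is not shown. Each printed stretch is the 250 bases before a transcript start, 5′ to 3′ on the strand of the gene, from RefSeq on GRCh38.p14. For PLK4 the most upstream of 3 listed starts is shown. The stretches lie at chr4:127880643-127880892 (plus strand), chr1:47314148-47314397 (minus), chr1:100132931-100133180 (minus) and chr10:93496362-93496611 (plus). Capitals mark CCAAT, the box bound by NF-Y, TTTGAA, the cell cycle homology region (CHR), and GCGGGAA or GCGCGAA, forms of the E2F motif, on either strand.
PLK4: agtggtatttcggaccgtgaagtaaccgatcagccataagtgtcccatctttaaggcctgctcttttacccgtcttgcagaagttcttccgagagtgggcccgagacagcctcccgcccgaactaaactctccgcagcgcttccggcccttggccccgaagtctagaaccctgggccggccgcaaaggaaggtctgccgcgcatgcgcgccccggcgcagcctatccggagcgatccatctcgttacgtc
STIL: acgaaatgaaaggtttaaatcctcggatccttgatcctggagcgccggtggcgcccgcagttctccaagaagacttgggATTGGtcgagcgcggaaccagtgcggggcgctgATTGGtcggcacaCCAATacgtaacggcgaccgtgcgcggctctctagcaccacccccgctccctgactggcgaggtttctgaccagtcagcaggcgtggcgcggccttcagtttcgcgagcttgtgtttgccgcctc
SASS6: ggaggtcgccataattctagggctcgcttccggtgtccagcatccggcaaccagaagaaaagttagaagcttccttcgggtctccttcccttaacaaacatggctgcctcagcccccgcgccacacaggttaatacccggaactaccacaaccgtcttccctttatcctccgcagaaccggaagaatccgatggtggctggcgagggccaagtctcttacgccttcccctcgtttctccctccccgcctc
CEP55: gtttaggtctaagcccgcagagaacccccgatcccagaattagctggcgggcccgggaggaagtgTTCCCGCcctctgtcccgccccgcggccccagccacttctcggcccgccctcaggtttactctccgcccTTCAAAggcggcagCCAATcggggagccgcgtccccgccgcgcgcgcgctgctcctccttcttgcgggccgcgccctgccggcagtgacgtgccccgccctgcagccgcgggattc

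In these stretches STIL held 3 CCAAT boxes, CEP55 held an E2F motif, a CHR and a CCAAT box in that order, and PLK4 and SASS6 held none of the motifs. STIL had a further E2F motif and PLK4 a further CHR within the 50 bases after the start, and CEP55 a further CHR across its start. Another listed promoter of PLK4, not shown, held a CCAAT box at position -86 from its own start. For CEP162 a CCAAT box at position -68 was the only motif found. RefSeq promoters of 300 bases, 250 before and 50 after the start, were listed for 43 of the 51 genes, 55 promoters in all. A CHR was found in 30.9% of the 55, against 12.4% of 22199 promoters of protein-coding genes and 15.2% of all 35116. An E2F motif of either form was found in 25.5%, against 10.7% and 8.54%, and a CCAAT box in 47.3%, against 34.7% and 34.6%. In these promoters no motif shared bases with a different motif, while forward and reverse CCAAT boxes shared bases in CEP97 and CETN2. The share with a CHR was alike in the 10 promoters of the 8 genes lower by 1.5-fold and in the other 45, at 30% and 31.1%, with 3 of the 10 from PLK4. The E2F share was 20% and 26.7%, and the CCAAT share 60% and 44.4%, or 6 of 10 and 20 of 45. Some promoters of 1 gene overlap, as in CEP76 and CEP112, so a site can be counted more than once. Per gene, a CHR was found in 37.2% of the 43, an E2F motif in 27.9% and a CCAAT box in 53.5%. Over 15843 protein-coding genes these shares were 15.8%, 13.8% and 42.1%. In the 8 lower genes they were 37.5%, 25% and 75%, and in the other 35 genes 37.1%, 28.6% and 48.6%. A match is a description of the letters, not of binding.

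Among the genes that lengthen, cap and mature the centriole, 6 of 9 (66.7%) lay below 0, beside 59.7% of all measured genes. Their median was -0.25. CEP97, which caps the growing end together with CCP110, was listed at 6.30 TPM in metformin and 10.3 in control, a ratio of 0.613 (0.554 to 0.677). CEP295 and CEP44, which take part in turning a new centriole into a centrosome, had ratios of 0.707 and 0.818, and CEP76, which limits reduplication, one of 0.744. CENPJ, listed as CPAP in RefSeq, brings tubulin to the growing wall and sets centriole length. Its levels were 10.6 TPM in metformin and 12.8 in control, a ratio of 0.834 (0.754 to 0.924). CEP120, its partner in elongation, was listed at 16.7 TPM in metformin and 16.4 in control, with an interval that included 1. The level of CEP97 relative to CEP120 was 0.378 in metformin and 0.627 in control.

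The pericentriolar scaffold lay close to control. CDK5RAP2, which activates the gamma-tubulin ring, was listed at 61.3 TPM in metformin and 60.1 in control, a ratio of 1.02 (0.980 to 1.06). PCNT, which encodes pericentrin, was listed at 36.6 TPM in metformin and 35.1 in control, a ratio of 1.04 (1.003 to 1.09). TUBG1, gamma-tubulin itself and the most abundant transcript of the set in metformin, was listed at 109 TPM in metformin and 128 in control, a ratio of 0.856 (0.809 to 0.906). Its exons overlap those of RETREG3 on the other strand. The difference of PCNT and of CDK5RAP2 turned to -0.08 and -0.0027 without the GC and length trend. That of TUBG1 was -0.33 there, in place of -0.22. CEP250 and CEP68 belong to the linker that ties the centrioles together. CEP250 was listed at 53.5 TPM in metformin and 48.1 in control, a ratio of 1.11 (1.08 to 1.14). Without the GC and length trend its difference was 0.0077, in place of 0.15. CEP68 was listed at 11.8 TPM in metformin and 12.4 in control, with an interval that included 1.

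The appendage and distal end group went both ways, with 8 of 12 genes (66.7%) below 0, beside 59.7% of all measured genes. Its median was -0.15. It held 3 of the 4 genes with the highest differences of the set. CEP89, a distal appendage protein, was listed at 74.6 TPM in metformin and 52.3 in control, a ratio of 1.43 (1.37 to 1.49). It lies on the minus strand of chromosome 19 at 33369904 to 33462935 of hg19. With centring on well expressed genes or trimmed mean scaling it passed 1.5-fold, at 0.59 each on the log2 scale. It was the only gene of the set to do so, where 7.33% and 7.08% of all genes were higher by 1.5-fold. CEP112 was listed at 14.9 TPM in metformin and 10.9 in control, a ratio of 1.37 (1.21 to 1.54). Its mean read depth over all exons was only 5.40 in metformin and 3.49 in control. CEP44, at 5.92 and 7.23 TPM, had depths of 11.1 and 11.9. The read pairs of CEP112 may thus be overestimated and its interval too narrow. CEP78 had a TPM ratio of 1.28, with 26.5 TPM in metformin and 20.7 in control, but its read depth over all exons had a ratio of 0.808 on that scale, so its direction also differed between the measures. TPM and depth ratios agreed within 5% for 46 of the 50 genes. Of the other distal appendage genes, CEP164, which docks vesicles for the cilium, had a ratio of 1.07 (1.007 to 1.14), and CEP83, which anchors the appendage, one of 0.911 (0.836 to 0.991).

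The subdistal appendage genes, whose products anchor microtubules, were lower or close to control. CEP128 had a ratio of 0.773 (0.708 to 0.844), CEP170 one of 0.823 (0.791 to 0.855) and NIN, which encodes ninein, one of 0.914 (0.875 to 0.953). CEP350, CEP43 and CEP19 act together at the distal end of the mother centriole in the start of ciliation. Their ratios were 0.769, 0.825 and 0.878, of which the last had an interval that included 1. CEP20, a relative of CEP43, was listed at 56.6 TPM in metformin and 77.0 in control.

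Of the genes of centriolar satellites and the gate of the cilium, 7 of 8 lay below 0, with a median of -0.23. CEP162, which promotes assembly of the transition zone at the axoneme, was listed at 8.38 TPM in metformin and 14.7 in control, a ratio of 0.568 (0.512 to 0.630). CEP41, needed for tubulin glutamylation in cilia, had a ratio of 0.702 (0.639 to 0.771). PCM1, the scaffold of the satellites, was listed at 64.5 TPM in metformin and 73.6 in control, a ratio of 0.875 (0.848 to 0.904). CEP290 of the transition zone had a ratio of 0.838, and the satellite proteins CEP72 and CEP126 ratios of 0.823 and 0.826. CEP131 had a ratio of 0.980, with an interval that included 1. OFD1, a satellite and distal centriole protein, was above 0, with 45.6 TPM in metformin and 42.6 in control, a ratio of 1.07 (1.005 to 1.14).

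CEP55 acts at the midbody, where it recruits the ESCRT machinery that separates daughter cells. It was listed at 99.2 TPM in metformin and 160 in control, a ratio of 0.619 (0.593 to 0.646), and ranked first of the set in control and next to TUBG1 in metformin. CEP55 (55165) lies on the plus strand of chromosome 10 at 95256369 to 95288849 of hg19. Of the 5 remaining measured CEP genes 4 lay below 0. CEP70, which binds gamma-tubulin, was listed at 26.8 TPM in metformin and 42.0 in control, a ratio of 0.637 (0.586 to 0.692). CEP85L, the lowest expressed of the measured genes, was listed at 3.17 TPM in metformin and 4.92 in control, a ratio of 0.645 that the pseudocount kept short of 1.5-fold on the log2(TPM + 1) scale. CEP95 and CEP15 had ratios of 0.939 and 0.784, and CEP170B one of 1.28 (1.21 to 1.35).

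Related genes did not always go the same way. CEP170 was lower in metformin and its paralog CEP170B higher, so that CEP170 made up 59.8% of their summed TPM in metformin and 69.9% in control, while the sum was 85.7 TPM in metformin and 89.2 in control. The centrins, small calcium-binding proteins, also differed: CETN3 had a ratio of 0.780 (0.726 to 0.837) and CETN2 one of 1.08 (0.994 to 1.17). CETN2 made up 59.6% of their sum in metformin and 51.6% in control. CEP57 and CEP57L1, and CEP85 and CEP85L, were lower together. Transcript GC content is 40.7% for CEP170 and 66.3% for CEP170B, and 34.0% for CETN3 and 41.0% for CETN2. With the trend over GC content and length taken out, CEP170 stood at -0.17 and CEP170B at 0.13. CETN3 stood at -0.036 and CETN2 at 0.23 there, beside -0.08 over all genes. CEP57 stood at -0.027, CEP57L1 at -0.29, CEP85 at -0.24 and CEP85L at -0.32.

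Genes with GC-rich transcripts tended to have higher differences. Over the 49 genes with a GC value, Spearman's rank correlation between GC content and the difference was 0.59, against 0.35 over 13186 measured genes. These are correlations across genes, which are not independent replicates and share the same libraries. The set is poor in GC, with a median of 41.1% against 48.4% over all measured genes, and 33 of the 49 genes lay in the lowest 3 of 10 bins of GC content with equal numbers of measured genes. Those 33 had a median difference of -0.35, against -0.23 for all genes in the same bins. The other 16 had a median of 0.017, against -0.016. Of the 49 genes, 29 lay below the median of all genes in their own bin. With that trend and the one over length taken out, the median of the set was -0.14 and that of the initiation group -0.31, beside -0.08 over all genes. The elongation and capping group stood at -0.036 there, the appendage group at -0.10 and the satellite group at -0.15, so the first of these no longer lay below all genes. PLK4 and STIL stood at -0.69 and -0.72 there, SASS6 at -0.51 and CEP55 at -0.57. The same rank correlation was 0.090 with transcript length and 0.27 with mean TPM.

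**Figure D3:**
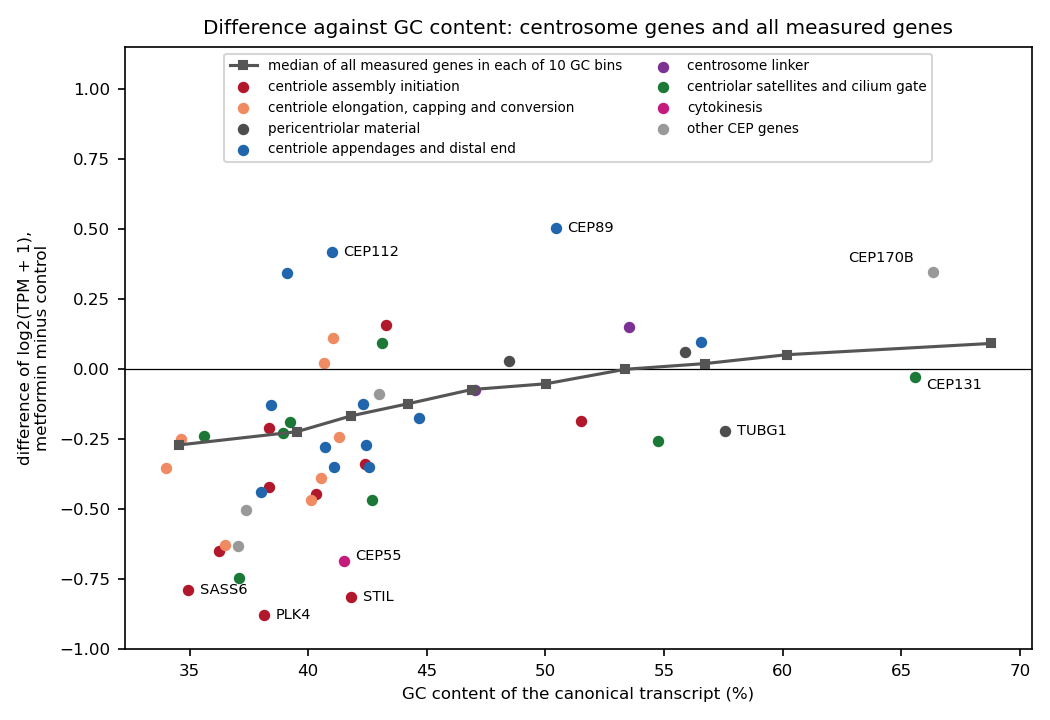
Difference of log2(TPM + 1), metformin minus control, against GC content of the canonical transcript (%) for 48 centrosome and centriole genes, coloured by role. Grey squares join the medians of all measured genes in 10 bins of GC content, drawn at the middle of each bin. They run between -0.27 and 0.09, and PLK4, STIL, SASS6 and CEP55 lie well below them.

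Other lists of related structures were set beside these genes. Of 33 further centriole and centrosome genes 24 lay below 0, with a median of -0.25, and 5, or 15.2%, were lower by 1.5-fold, beside 7.03% over all measured genes. KIF24, a kinesin that keeps CCP110 at the centriole, and NEK2, the kinase that opens the linker, had ratios of 0.574 and 0.624. CCP110, the partner of CEP97, was listed at 14.5 TPM in metformin and 20.7 in control, a ratio of 0.702 (0.646 to 0.761). TUBE1, which encodes epsilon-tubulin, and the ubiquitin ligase TRIM37 stood at the other end, with ratios of 1.19 and 1.198. Augmin recruits the gamma-tubulin ring to spindle microtubules. Of 18 genes of that ring and of augmin, 12 (66.7%) lay below 0, beside 59.7% of all measured genes. Their median was -0.25. They ran between HAUS3 and MZT1, at 0.566 and 0.685, and TUBG2 and MZT2B, at 1.246 and 1.44. KIF24, TRIM37, HAUS3 and MZT2B overlap exons of another gene.

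Of 37 genes of cilium transport and the transition zone 26 (70.3%) lay below 0, beside 59.7% of all measured genes. Their median was -0.11, and 1, or 2.70%, was lower by 1.5-fold. BBS10 and IFT88 stood lowest, at 0.562 and 0.747, and BBS2 and IFT140, both overlapping another gene, highest, at 1.48 and 1.49. All 20 genes of a G2 and mitosis list lay below 0, with a median of -0.83, 16 (80%) lower by 1.5-fold and 3 by 2-fold, beside 7.03% and 1.24% over all measured genes. They ran between NDC80 at 0.468 and HMMR at 0.474, and CDC20 at 0.743 and UBE2C at 0.796. The differences of PLK4, STIL and SASS6, between -0.88 and -0.79, were of the size of that median, while those of the pericentriolar scaffold and the appendage genes were not. These 3 genes are the lowest of the set by this same difference. The G2 and mitosis list was written with earlier results of these data known, so the likeness is a description only.

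**Figure D4:**
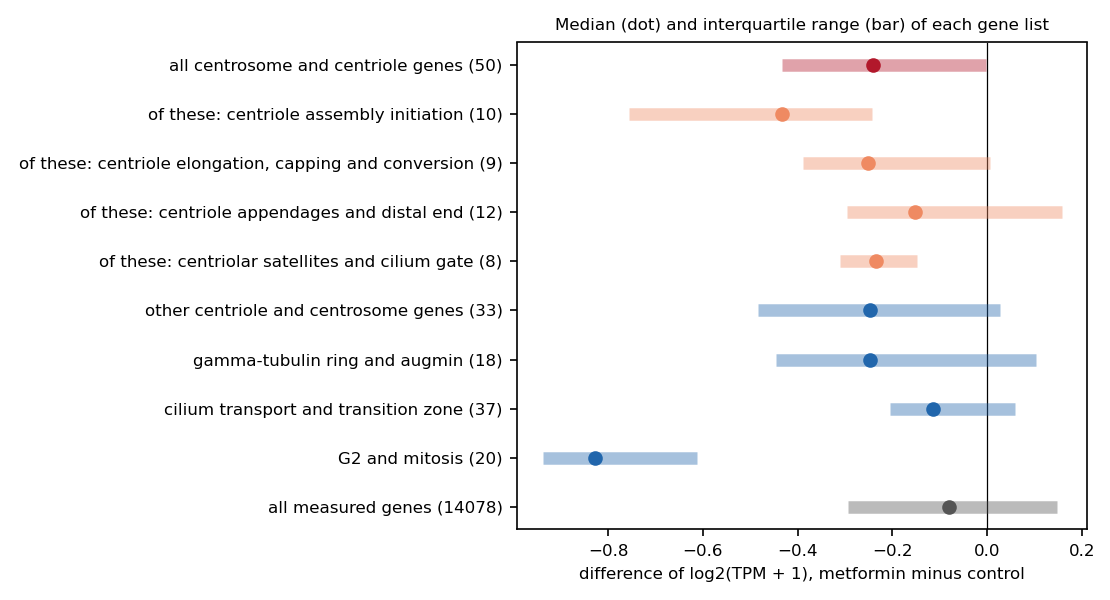
Median (dot) and interquartile range (bar) of the log2(TPM + 1) difference (metformin minus control) for the centrosome and centriole genes, their role groups with at least 8 genes, other lists and all measured genes, with the number of measured genes in brackets. The initiation group at -0.43 lies between the whole set at -0.24 and the G2 and mitosis list at -0.83, and all measured genes lie at -0.08.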

How the data were processed

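RNA of H1299 cells with 5 mM metformin and without it was sequenced as 1 library each. Per the labels' protocols, a TruSeq Stranded mRNA LT kit was used and reads were mapped to hg19 with Bowtie2. The submitters' processing notes name Trimmomatic 0.38 and HISAT2, with the builds hg19 and GRCh37. The program behind the abundances and its strand setting were not given in the sources used here. TPM and FPKM per gene were computed and deposited by the authors. The deposited coverage column holds mean depth over the exons of a gene.

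Rows were summed per NCBI gene ID, and symbols were taken from a RefSeq table (GRCh38, names only), which matched 27559 of 27685 IDs. The largest ratio of coverage to FPKM gave the aligned bases. A read pair was taken as 202 bases, the commonest base total among sparsely covered short genes. Pairs per gene came from FPKM and the length of the canonical transcript of GENCODE 44 on GRCh37 and added up to 107% of either library's total. They gave the exact (Clopper-Pearson) 95% intervals, which duplicates can make too narrow. An estimate of pairs that is too high, possible where depth is low for the FPKM, also makes them too narrow. The difference used log2(TPM + 1), with a pseudocount of 1, so it understates differences of low genes. Overlap was counted between GENCODE exons, with genes whose GENCODE name matches a symbol in the deposited tables, and 12 of the 50 measured genes have one. Genes under another name and unnamed entries were not counted. The trend over GC content and length was fitted across all measured genes with both values. Steps were tested on simulated data. All genes of the set could be named, except 1 that is counted but not reported here. From each other list the 2 genes at each end were named, with CCP110 and NEK2. The members and lists were chosen with earlier results of these data known. Python 3.11.15 was used.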

Additional observations from a re-analysis of the deposited data

How the results depend on the processing

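Values were recomputed under 9 other settings and, chosen after seeing the data, with read depth in place of TPM. No gene of the set passed 2-fold under any of them. Of 50 genes, those lower by 1.5-fold numbered 8 with TPM, 4 with a pseudocount of 5 and 5 with FPKM. They numbered 5 with centring, 5 with trimmed mean scaling and, of 49 genes, 2 with the GC and length trend removed. The cause was not tested. The shares of all genes lower by 1.5-fold in these settings were, in that order, 7.03%, 3.11%, 4.36%, 4.77%, 5.06% and 5.35%. In the last of these settings the share of the set was not above that of all genes. With centring and with trimmed mean scaling 1 gene of the 50, CEP89, was higher by 1.5-fold, beside 7.33% and 7.08% of all genes. The median of the 3 pericentriolar genes moved from 0.028 to 0.060 with FPKM, 0.12 with centring and 0.11 with trimmed mean scaling, and to -0.08 with the GC and length trend removed. Of the 50 genes, 32 lay below 0 and 7 above 0 under every setting that gave them a value, and 11 changed sign, among them CDK5RAP2, CEP131, CEP164, CEP44, CEP63, CEP68, CEP78, CEP83 and PCNT. No paired analysis was possible because each group has 1 library. Depth left 95% counting intervals with a median half-width of 7.19% of the ratio and at most 15.3%, and the interval included 1 for 8 of 49 genes.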

Other observations

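Entries with CEP symbols that encode no protein were kept out of the set and were low. CEP83-DT, a long noncoding RNA next to CEP83, was listed at 1.34 TPM in metformin and 1.90 in control. CEP72-DT was listed at 0.159 TPM in metformin and 0.167 in control, and the pseudogene CEP192P1 at 0.119 TPM in metformin and 0.223 in control. CEP170P1, the pseudogene of CEP170, was listed at 0 in both.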
